A study of Mus musculus with 9 samples.

Results

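The genes described here are 37 mouse genes of fatty acid uptake and mitochondrial beta-oxidation, chosen by name from 55487 gene identifiers and not by their measured values. All 37 were in the count table, and 36 of them were among the 15633 genes that passed the filter on low counts. The series holds 9 RNA-seq libraries of cardiomyocytes isolated from mice, 3 in each of 3 groups. The Firre overexpression group (titled LncFirre overexpresssion) received AAV9-Firre, an adeno-associated virus vector for the long noncoding RNA Firre. The negative control group received AAV9-VC (values marked AAV9-VC are those of the negative control), and the blank control group is labelled NC, with no vector named. The labels give no strain, age, sex, genotype, dose, time or vector promoter, and do not say whether the virus was given to animals or to cells in culture. The titles number the samples of a group as biological replicates but name no separate animals or cultures. The p-values therefore reflect the spread among these samples alone, which could be technical.

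Fatty acids enter a heart muscle cell after lipoprotein lipase has freed them from circulating fat, and are carried by membrane transporters and a cytosolic binding protein. They are joined to coenzyme A, passed into the mitochondrion by the carnitine shuttle, and shortened by repeated rounds of dehydrogenation, hydration, a second dehydrogenation and thiolytic cleavage. The electrons leave through the electron transfer flavoprotein, and this pathway is the main fuel supply of the adult heart.

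Firre RNA itself was at 62.9, 69.7 and 62.6 CPM (read counts relative to library size, scaled with TMM factors) in the Firre overexpression libraries, against 32.5, 34.4 and 32.7 for the negative control and 34.0, 37.2 and 30.2 for the blank control. The Firre overexpression libraries were above both controls, 0.97 higher than the negative control on the log2 scale (SE 0.07, edgeR quasi-likelihood test, adjusted p = 4.74e-13). This value is TMM-scaled, and all 20 listed cardiomyocyte markers rose on that scale too (median log2 fold change 0.74). The part of cell composition in the Firre difference was not tested. Gene counts per library came to between 19639687 and 22697016 in the Firre overexpression group, 19252992 and 20868139 in the negative control and 15591542 and 20193373 in the blank control. The defining markers of cardiomyocytes were all present, and markers of other heart cell types were present too; both moved with the groups, and their values are given with the results below.

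Most genes of the pathway were higher under Firre overexpression. Against the negative control 31 of the 36 tested members rose and 2 fell (edgeR, adjusted p under the threshold of 0.05 over all genes tested), beside 27.5% of all tested genes that rose and 28.4% that fell (56.0% in either direction). The fatty acid binding protein gene Fabp3, the thiolase gene Acaa2, the thioesterase gene Acot2 and the mitochondrial carrier gene Ucp3 rose by between 1.28 and 2.59 on the log2 scale; the value of 1.51 for Cpt1b rested on few counts. The median log2 fold change of the members was 0.86, against 0.00024 for all tested genes, and the members' values ran between -0.53 and 2.59. A called rise of at least 2-fold was found for 14 members, beside 4.89% of all tested genes. The groups did not overlap, with every Firre overexpression library above every negative control library, for 32 members, and lay the other way round for 2; for all tested genes these shares were 30.8% and 31.5%.

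Together the 37 genes took 0.611% ± 0.0104 of all gene counts in the Firre overexpression libraries, 0.354% ± 0.00552 in the negative control and 0.346% ± 0.00365 in the blank control (SD, n = 3 each). Cell type markers differed between the groups too. All 20 listed cardiomyocyte markers rose against the negative control (median log2 fold change 0.74). Their summed level ran between 71237 and 74536 CPM under Firre overexpression, between 45713 and 49065 CPM for AAV9-VC and between 46972 and 49415 CPM in the blank control. Of 15 fibroblast markers 14 fell, and of 14 tested endothelial markers 12 fell. In bulk RNA of this kind, a smaller share of cells of a type and less RNA per cell cannot be told apart, and the part of cell composition in the rise of the members was not tested.

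To set the members against the cardiomyocyte signal of the same library, the fold changes were recomputed with each library scaled to its summed cardiomyocyte marker counts. This scaling lowered the median of all tested genes by 0.62 on the log2 scale; under it 19 members were higher, 8 were lower and 9 did not pass the threshold, beside 4.95% of all tested genes higher and 72.8% lower. The members' median log2 fold change was then 0.24. Of the 20 cardiomyocyte markers themselves 10 were higher and 5 lower under this scaling (median 0.12), and of 21 genes of the TCA cycle and pyruvate dehydrogenase 7 were higher and 1 lower (median 0.056). With TMM scaling, 21 members lay above the cardiomyocyte marker median of 0.74 and 15 at or below it.

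**Figure D1:**
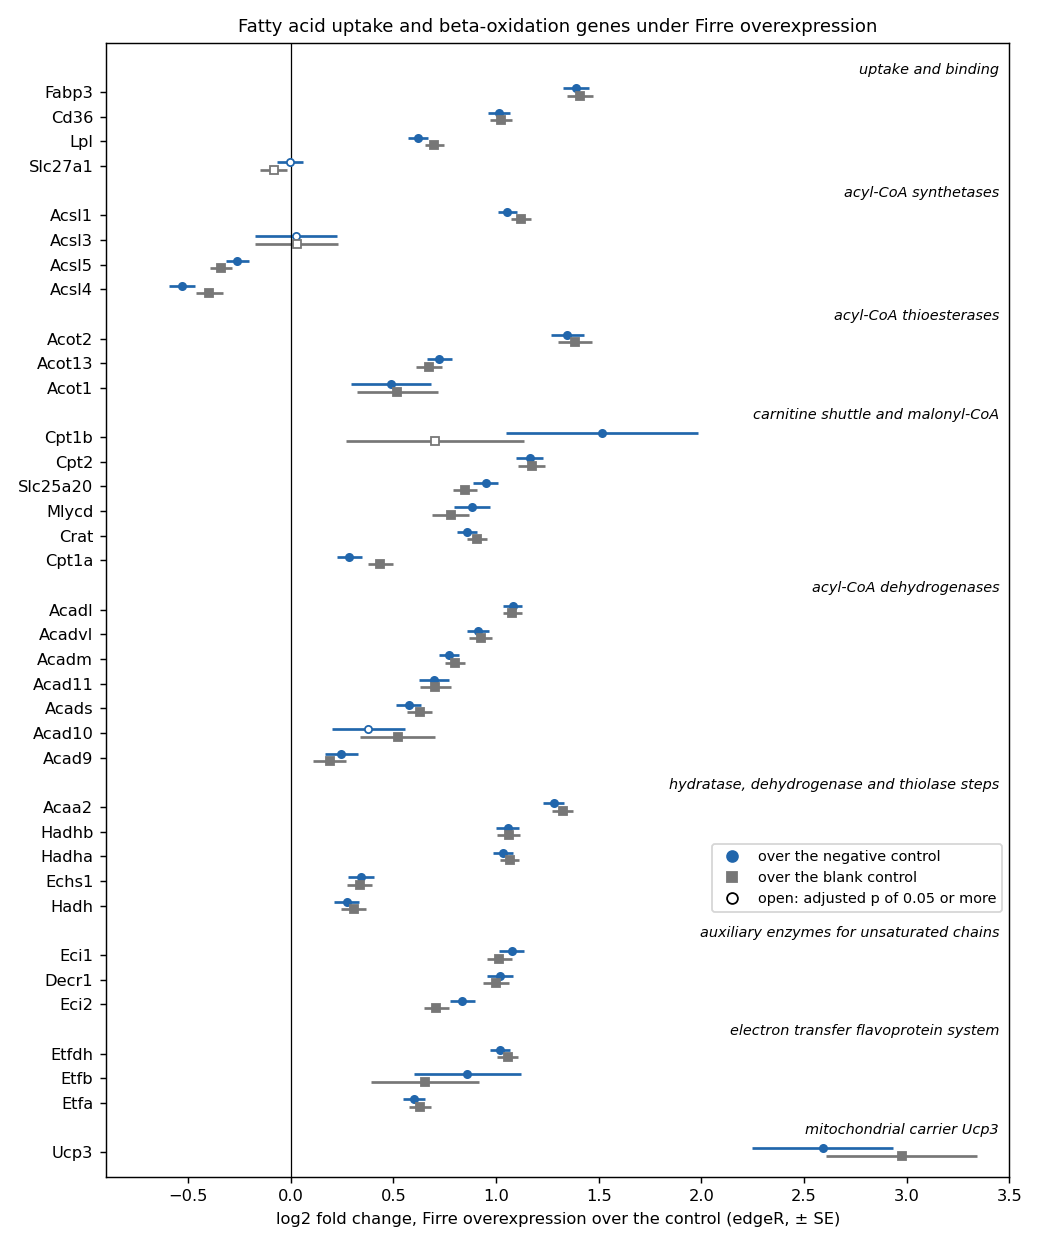
Log2 fold change (x axis, edgeR with TMM scaling, ± SE, n = 3 libraries a group) of each tested member (y axis, grouped by role) for Firre overexpression over the negative control (circles) and over the blank control (squares); open symbols did not pass the adjusted p of 0.05. Most members lie right of 0, Ucp3 farthest at 2.59 and 2.98, while Acsl4 and Acsl5 lie left of it; scaled to cardiomyocyte markers, Acsl3, Acot1, Cpt1a, Acads, Acad9, Acad10, Hadh, Echs1 and Etfa pass to the left of 0 against the negative control.

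Among the genes of uptake and binding, 3 of 4 rose against the negative control. Lpl encodes lipoprotein lipase, the secreted enzyme that frees fatty acids from triglyceride-rich lipoproteins. Lpl stood at 825, 756 and 800 CPM under Firre overexpression, against 496, 537 and 516 for AAV9-VC and 502, 505 and 459 for the blank control, with no overlap between Firre overexpression and either control. The log2 fold change over the negative control was 0.62 (SE 0.05, edgeR adjusted p = 2.16e-12), and 0.00 when scaled to cardiomyocyte markers (adjusted p = 0.954).

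Cd36, the fatty acid translocase of the cell membrane, had 257, 235 and 245 CPM under Firre overexpression, against 116, 122 and 126 for AAV9-VC and 119, 130 and 115 for the blank control. Each Firre overexpression library was above all 6 control libraries, and the log2 fold change over the negative control was 1.01 (SE 0.05, edgeR adjusted p = 2.47e-16). Fabp3, which encodes the heart-type fatty acid binding protein of the cytosol, had 311, 321 and 315 CPM under Firre overexpression, against 126, 108 and 128 for AAV9-VC and 131, 111 and 115 for the blank control. It rose by 1.39 (SE 0.06, edgeR adjusted p = 3.01e-16), and by 0.78 when scaled to cardiomyocyte markers. Over 21.7% of its 100-base stretches Fabp3 is identical to the pseudogene Fabp3-ps1, which held between 31 and 46 counts in the Firre overexpression libraries, 12 and 17 in the negative control and 2 and 13 in the blank control.

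Slc27a1, a fatty acid transport protein with acyl-CoA synthetase activity, did not follow the other genes of uptake. It had 63.7, 70.4 and 64.1 CPM under Firre overexpression, against 67.7, 61.4 and 69.6 for AAV9-VC and 64.4, 71.3 and 74.2 for the blank control. The groups overlapped, and its log2 fold change over the negative control was -0.00 (SE 0.06, edgeR adjusted p = 0.973), and -0.62 when scaled to cardiomyocyte markers (adjusted p = 1.44e-08).

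The long-chain acyl-CoA synthetases, which activate fatty acids by joining them to coenzyme A, split by isoform. Of the 4 tested, Acsl1 rose, Acsl4 and Acsl5 fell and Acsl3 did not pass the test. Acsl1, the main isoform of heart muscle, had 399, 402 and 368 CPM under Firre overexpression, against 189, 186 and 187 for AAV9-VC and 184, 174 and 179 for the blank control, a log2 fold change over the negative control of 1.06 (SE 0.05, edgeR adjusted p = 5.60e-18).

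Acsl4, which prefers arachidonic acid, had 61.8, 59.4 and 65.1 CPM under Firre overexpression, against 83.9, 97.8 and 86.7 for AAV9-VC and 85.7, 84.0 and 75.5 for the blank control. All 3 Firre overexpression libraries were below all control libraries, with a log2 fold change over the negative control of -0.53 (SE 0.06, edgeR adjusted p = 2.68e-08). Acsl5, an isoform of mitochondria and endoplasmic reticulum, had 75.0, 84.4 and 77.8 CPM under Firre overexpression, against 94.1, 92.8 and 97.2 for AAV9-VC and 98.5, 99.4 and 103 for the blank control. Its groups did not overlap either, and its log2 fold change was -0.26 (SE 0.05, edgeR adjusted p = 0.000168). Acsl4 and Acsl5 fell in the same libraries in which 14 of 15 fibroblast, 12 of 14 endothelial and 13 of 13 tested macrophage markers fell; the part of these cells in the fall was not tested.

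Acsl3, an isoform of the endoplasmic reticulum and lipid droplets, had 16.4, 12.5 and 17.3 CPM under Firre overexpression, against 12.4, 20.3 and 12.4 for AAV9-VC and 14.8, 14.6 and 15.8 for the blank control. The second negative control library stood above the other 8, and the log2 fold change was 0.03 (SE 0.20, edgeR adjusted p = 0.925). Without that library it was 0.31 (adjusted p = 0.038), and scaled to cardiomyocyte markers it was -0.59 (adjusted p = 0.0317). Acsl6, an isoform best known from the brain, was left out of the test by the filter: it had 5, 6 and 2 counts under Firre overexpression, 6, 11 and 4 counts in the negative control and 4, 6 and 12 counts in the blank control.

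**Figure D2:**
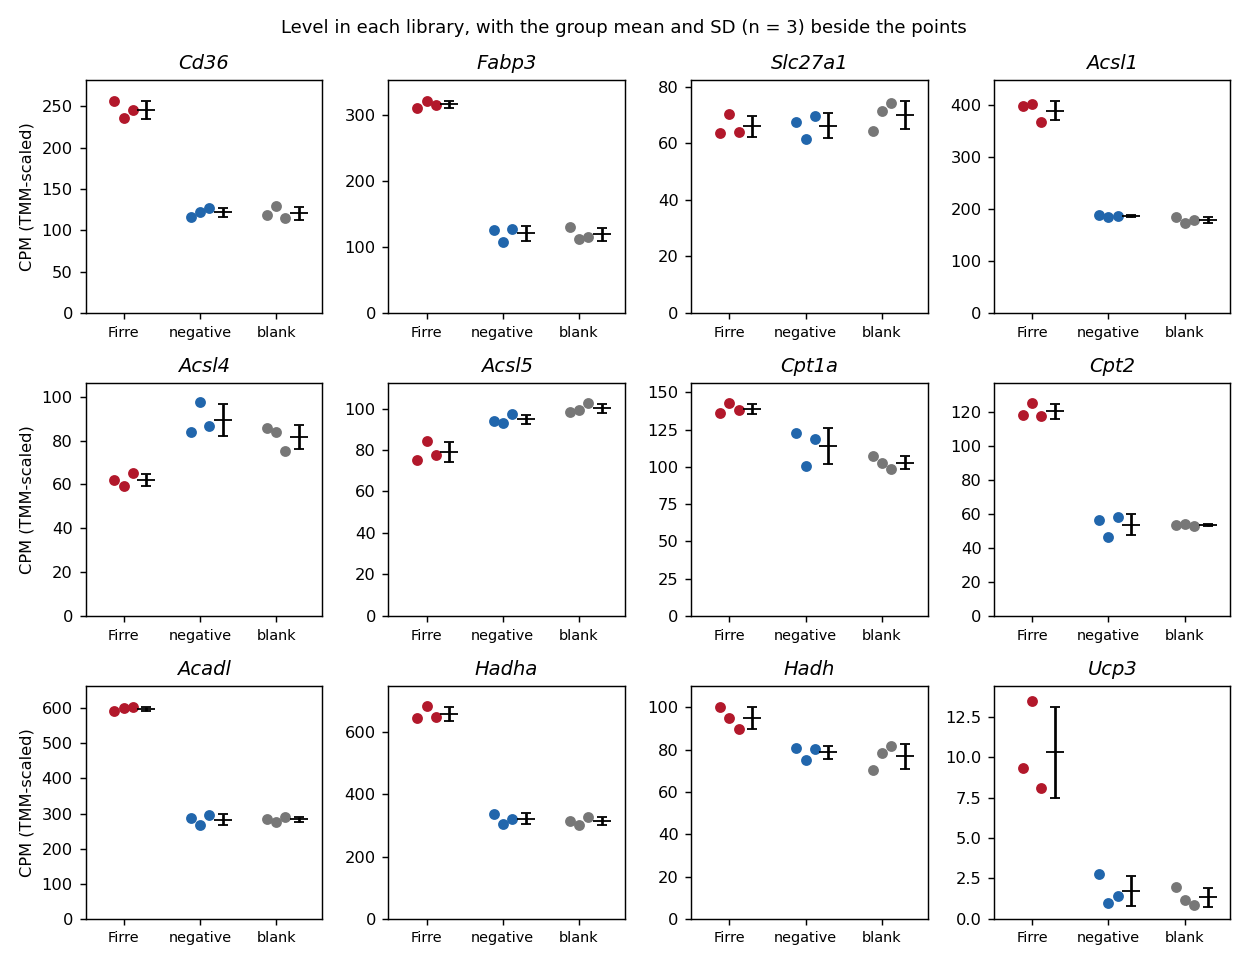
Level in CPM (y axis, TMM-scaled, starting at 0) of 12 members in each library (points) of the Firre overexpression, negative control and blank control groups (x axis), with the group mean ± SD (n = 3) beside the points. Cd36, Fabp3, Acsl1, Cpt2, Acadl, Hadha and Ucp3 stand clear above both controls under Firre overexpression, Acsl4 and Acsl5 below them, and Slc27a1 overlaps them. Cpt1a and Hadh are higher here by 0.29 and 0.27 on the log2 scale over the negative control. By the marker scaling, which is not drawn here, they are lower at -0.33 and -0.34.

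The acyl-CoA thioesterases, which release free fatty acids from coenzyme A, were all 3 called higher. Acot2, of the mitochondrial matrix, had 50.6, 57.9 and 50.4 CPM under Firre overexpression, against 22.7, 19.0 and 20.9 for AAV9-VC and 18.4, 20.8 and 21.6 for the blank control, and rose by 1.35 (SE 0.08, edgeR adjusted p = 5.51e-15). Acot13, a small mitochondrial thioesterase, had 103, 103 and 98.8 CPM under Firre overexpression, against 62.8, 61.5 and 60.5 for AAV9-VC and 61.5, 58.8 and 71.0 for the blank control, and rose by 0.72 (SE 0.06, edgeR adjusted p = 1.58e-11), a call that was lost at 0.11 when scaled to cardiomyocyte markers (adjusted p = 0.127). Both had Firre overexpression libraries above all control libraries.

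The cytosolic thioesterase gene Acot1, a close copy of Acot2 beside it on chromosome 12, was less certain. It had 4.76, 4.33 and 3.39 CPM under Firre overexpression, against 3.34, 2.87 and 2.70 for AAV9-VC and 2.81, 3.46 and 2.40 for the blank control. The third Firre overexpression library lay below the second blank control library, so these groups overlapped, and just above the highest negative control library. Its log2 fold change over the negative control was 0.49 (SE 0.19, edgeR adjusted p = 0.0329). The call was lost without Firre overexpression replicate 1 (adjusted p = 0.148) or 2 (0.0818) or negative control replicate 2 (0.0827) or 3 (0.107), with DESeq2 (0.0983) and with library totals alone (0.0585), and the value was -0.13 when scaled to cardiomyocyte markers. Of the 100-base stretches of Acot1 21.9% are shared with Acot2 or other genes of its cluster, and 17.1% of those of Acot2 with Acot1. Read pairs that lie wholly in shared sequence cannot be assigned to 1 gene, and how many do so was not tested.

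All 6 genes of the carnitine shuttle and of malonyl-CoA control were called higher over the negative control, with log2 fold changes between 0.29 and 1.51 and the value of Cpt1a turning to -0.33 when scaled to cardiomyocyte markers. Crat encodes carnitine acetyltransferase, which moves acetyl groups between coenzyme A and carnitine. It had 403, 417 and 382 CPM under Firre overexpression, against 232, 211 and 220 for AAV9-VC and 215, 208 and 219 for the blank control, and rose by 0.86 (SE 0.05, edgeR adjusted p = 1.35e-15). Cpt2, the carnitine palmitoyltransferase of the inner mitochondrial membrane, had 118, 126 and 118 CPM under Firre overexpression, against 56.4, 46.8 and 58.5 for AAV9-VC and 53.6, 54.0 and 52.9 for the blank control, and rose by 1.16 (SE 0.06, edgeR adjusted p = 1.36e-15). Neither gene overlapped between Firre overexpression and a control. The translocase gene Slc25a20 rose by 0.95 (SE 0.06), and Mlycd, whose product breaks down malonyl-CoA, the inhibitor of CPT1, by 0.88 (SE 0.09), both without overlap.

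Cpt1a and Cpt1b encode the liver and muscle forms of CPT1, the step of the outer mitochondrial membrane at which the pathway is held to be controlled. Cpt1a had 136, 143 and 138 CPM under Firre overexpression, against 123, 100 and 119 for AAV9-VC and 107, 102 and 98.6 for the blank control. Its groups did not overlap, and its log2 fold change over the negative control was 0.29 (SE 0.06, edgeR adjusted p = 0.000181) with TMM scaling and -0.33 (adjusted p = 3.96e-05) with marker scaling.

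Cpt1b held only 16, 20 and 14 counts under Firre overexpression, 3, 6 and 8 counts in the negative control and 7, 14 and 6 counts in the blank control. The annotated read-through gene Gm44502 overlaps 94.8% of the Cpt1b transcript on the same strand and had 0 counts in all 9 libraries, and reads that fall in both genes cannot be assigned to either, so the Cpt1b level here is uncertain. The log2 fold change was 1.51 (SE 0.47, edgeR adjusted p = 0.00686) over the negative control and 0.70 (SE 0.43, adjusted p = 0.170) over the blank control. Scaled to cardiomyocyte markers, it was 0.90 over the negative control and not called (adjusted p = 0.0807).

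The acyl-CoA dehydrogenases carry out the first oxidation of each round and are ordered by the chain length they accept. Of 7 genes, 6 rose over the negative control; scaled to cardiomyocyte markers, Acads and Acad9 turned to -0.04 and -0.37 and Acad11 was not called at 0.080 (adjusted p = 0.365). Acadl, for long chains, had 592, 599 and 604 CPM under Firre overexpression, against 287, 267 and 295 for AAV9-VC and 283, 276 and 290 for the blank control, and rose by 1.08 (SE 0.05, edgeR adjusted p = 1.63e-18). Acadvl, for very long chains, had 262, 276 and 267 CPM under Firre overexpression, against 150, 129 and 149 for AAV9-VC and 136, 140 and 148 for the blank control, and rose by 0.91 (SE 0.05, edgeR adjusted p = 4.76e-15). Acadm, for medium chains, had 238, 243 and 232 CPM under Firre overexpression, against 140, 144 and 134 for AAV9-VC and 135, 139 and 135 for the blank control, and rose by 0.77 (SE 0.05, edgeR adjusted p = 1.16e-14). In each of these 3 genes every Firre overexpression library was above every control library. Acadvl shares 45.0% of its transcript with Dvl2 on the other strand, and whether strand was used in counting is not stated.

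The short-chain gene Acads rose by 0.57 (SE 0.06) and Acad11 by 0.70 (SE 0.07). Acad9, best known as an assembly factor of respiratory complex I, changed by 0.25 on the log2 scale (SE 0.08, edgeR adjusted p = 0.00907), which was 0.21 (adjusted p = 0.0522) without negative control replicate 1. Acad10 had 4.20, 4.56 and 4.70 CPM under Firre overexpression, against 3.65, 3.01 and 3.72 for AAV9-VC and 2.62, 3.02 and 3.71 for the blank control. Its groups did not overlap, but its log2 fold change of 0.38 (SE 0.18) over the negative control missed the threshold (edgeR adjusted p = 0.0725), and was -0.24 when scaled to cardiomyocyte markers (adjusted p = 0.216).

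The promoter windows of the members, whichever way they moved, were read from RefSeq (GRCm38.p6). It held a window of 250 bases before to 50 bases after the start site for 30 of the 37 members. None was found there for Lpl, Acot13, Cpt1b, Crat, Acad9, Acaa2 and Decr1. The letters AGGTCA, the half-site of nuclear receptors of the PPAR and ERR families, and the other motifs named here were searched on both strands. They were in 7 of the 30 members' windows (23.3%: Acadm, Acadvl, Acsl6, Cd36, Cpt1a, Echs1 and Ucp3), against 18.1% of 27025 genes with a window. The longer ERR site TCAAGGTCA, which contains the half-site, was in 1 member, Acsl6 (3.33%, against 0.466% of genes), and the PPAR direct repeat of 2 half-sites with 1 base between them was in 0 members (against 0.048% of genes). The GC box GGGCGG was in 21 members (70.0%, against 38.2%) and CCAAT in 16 (53.3%, against 41.1%). The shares of genes are over all genes with a window, expressed here or not, and the genes tested here were not set apart. The Acadm window (chr3:153944594-153944893, minus strand), shown as a dehydrogenase with the half-site, holds it in reverse orientation at -249 to -244 from the start site, in capitals.
Acadm: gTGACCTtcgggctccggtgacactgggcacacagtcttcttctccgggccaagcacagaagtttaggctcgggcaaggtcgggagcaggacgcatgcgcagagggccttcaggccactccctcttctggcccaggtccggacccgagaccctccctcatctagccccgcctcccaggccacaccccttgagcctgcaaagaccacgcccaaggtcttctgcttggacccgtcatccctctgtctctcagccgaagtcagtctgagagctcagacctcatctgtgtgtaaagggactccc

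Of the 5 genes for the hydratase, second dehydrogenase and thiolase steps all rose over the negative control, although Hadh and Echs1 turned to -0.34 and -0.27 when scaled to cardiomyocyte markers. Hadha and Hadhb encode the alpha and beta subunits of the mitochondrial trifunctional protein, which carries out these steps for long chains. Hadha had 643, 684 and 646 CPM under Firre overexpression, against 338, 304 and 322 for AAV9-VC and 315, 301 and 327 for the blank control, and rose by 1.03 (SE 0.05, edgeR adjusted p = 1.31e-17). Hadhb had 206, 198 and 196 CPM under Firre overexpression, against 102, 96.7 and 90.2 for AAV9-VC and 88.8, 103 and 96.0 for the blank control, and rose by 1.06 (SE 0.06, edgeR adjusted p = 2.89e-16). Both subunits were above all controls in every Firre overexpression library. Of the 100-base stretches of Hadhb 52.8% are shared with the pseudogenes Gm13910 and Gm9108, which themselves rose by 0.82 (SE 0.08) and 0.98 (SE 0.26), so the Hadhb level per gene is uncertain.

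The 2 subunit genes lie head to head on chromosome 5. GENCODE M21 places their 5' ends at 30155162 (Hadha) and 30155248 (Hadhb), while their RefSeq start sites are 273 bases apart, so the spacing depends on the annotation. Their RefSeq promoter windows share 228 bases. The windows are shown because of this shared stretch and the similar fold changes of 1.03 and 1.06; Hadha is at chr5:30154931-30155230 on the minus strand and Hadhb at chr5:30155003-30155302 on the plus strand (RefSeq, GRCm38.p6). Neither window holds AGGTCA on either strand, so no letters are in capitals.
Hadha: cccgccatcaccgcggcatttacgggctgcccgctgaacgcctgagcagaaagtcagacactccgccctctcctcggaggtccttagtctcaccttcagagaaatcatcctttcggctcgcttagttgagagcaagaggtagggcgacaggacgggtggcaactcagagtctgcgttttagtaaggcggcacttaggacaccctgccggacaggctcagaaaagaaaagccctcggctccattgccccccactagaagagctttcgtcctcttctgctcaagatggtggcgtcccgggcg
Hadhb: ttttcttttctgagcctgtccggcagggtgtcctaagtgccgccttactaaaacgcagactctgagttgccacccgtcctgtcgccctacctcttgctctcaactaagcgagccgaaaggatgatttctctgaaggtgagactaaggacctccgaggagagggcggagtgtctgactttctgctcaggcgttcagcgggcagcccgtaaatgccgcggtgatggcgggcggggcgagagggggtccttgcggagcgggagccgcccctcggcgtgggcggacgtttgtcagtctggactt

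Acaa2, the thiolase that releases acetyl-CoA from medium and long chains, had 442, 485 and 426 CPM under Firre overexpression, against 190, 180 and 187 for AAV9-VC and 172, 179 and 189 for the blank control. No other of these 5 genes differed as much: its log2 fold change was 1.28 (SE 0.05, edgeR adjusted p = 3.70e-19), and 0.66 when scaled to cardiomyocyte markers. Echs1, the short-chain enoyl-CoA hydratase, and Hadh, the hydroxyacyl-CoA dehydrogenase of medium and short chains, changed less, with log2 fold changes of 0.34 (SE 0.06, edgeR adjusted p = 2.54e-05) and 0.27 (SE 0.06, adjusted p = 0.000275). Their libraries did not overlap with the negative control.

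The 3 auxiliary enzymes, which bring the double bonds of unsaturated chains into a form that the main pathway accepts, all rose. Decr1, the dienoyl-CoA reductase, had 97.3, 96.5 and 99.0 CPM under Firre overexpression, against 43.6, 49.0 and 51.7 for AAV9-VC and 47.3, 52.2 and 46.7 for the blank control, and rose by 1.02 (SE 0.06, edgeR adjusted p = 1.22e-14). Eci2, an enoyl-CoA isomerase of mitochondria and peroxisomes, had 87.1, 91.4 and 85.8 CPM under Firre overexpression, against 50.2, 46.6 and 51.5 for AAV9-VC and 51.2, 52.6 and 58.0 for the blank control, and rose by 0.83 (SE 0.06, edgeR adjusted p = 6.13e-13). Eci1, the mitochondrial isomerase, had 81.2, 83.8 and 77.3 CPM under Firre overexpression, against 39.0, 37.2 and 38.8 for AAV9-VC and 39.6, 38.0 and 42.3 for the blank control, and rose by 1.08 (SE 0.06, edgeR adjusted p = 1.38e-15). In none of the 3 did Firre overexpression and control libraries overlap.

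The genes of the electron transfer flavoprotein system, which passes electrons of the dehydrogenases to ubiquinone, all rose over the negative control, but with cardiomyocyte marker scaling only Etfdh stayed called higher, Etfa turning to -0.01 and Etfb not called at 0.25 (adjusted p = 0.38). Etfdh, the ubiquinone oxidoreductase, had 205, 204 and 198 CPM under Firre overexpression, against 97.2, 99.7 and 102 for AAV9-VC and 94.2, 96.2 and 101 for the blank control, and rose by 1.02 (SE 0.05, edgeR adjusted p = 3.71e-17). Etfa, the alpha subunit, had 159, 168 and 169 CPM under Firre overexpression, against 108, 106 and 113 for AAV9-VC and 99.5, 112 and 109 for the blank control, and rose by 0.60 (SE 0.05, edgeR adjusted p = 3.17e-11). Both genes were above all control libraries in every Firre overexpression library.

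Etfb, the beta subunit, held only 45, 53 and 37 counts under Firre overexpression, 25, 22 and 26 counts in the negative control and 25, 29 and 21 counts in the blank control. Its log2 fold change over the negative control was 0.86 (SE 0.26, edgeR adjusted p = 0.00615). The read-through gene Gm45233 overlaps 69.1% of the Etfb transcript on the same strand and had 0 counts in all 9 libraries, so the Etfb level, like that of Cpt1b, is uncertain.

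Ucp3, a mitochondrial carrier of the uncoupling protein family whose expression follows fatty acid supply in muscle, had the largest fold change of the 36 tested members. It had 9.36, 13.5 and 8.09 CPM under Firre overexpression, against 2.78, 0.988 and 1.43 for AAV9-VC and 1.98, 1.17 and 0.857 for the blank control. The lowest Firre overexpression library was above the highest control library. Ucp3 held few counts in the controls, 54, 21 and 28 in the negative control and 31, 24 and 15 in the blank control. Its log2 fold change over the negative control was 2.59 (SE 0.34, edgeR adjusted p = 7.84e-05), a 6.02-fold difference, and 1.98 when scaled to cardiomyocyte markers. The value ran between 2.30 and 3.10 when 1 library was left out, the highest without negative control replicate 1. Its promoter window (chr7:100472741-100473040, plus strand; RefSeq, GRCm38.p6) is shown because it holds AGGTCA at 2 places, -149 to -144 and -44 to -39, in capitals.
Ucp3: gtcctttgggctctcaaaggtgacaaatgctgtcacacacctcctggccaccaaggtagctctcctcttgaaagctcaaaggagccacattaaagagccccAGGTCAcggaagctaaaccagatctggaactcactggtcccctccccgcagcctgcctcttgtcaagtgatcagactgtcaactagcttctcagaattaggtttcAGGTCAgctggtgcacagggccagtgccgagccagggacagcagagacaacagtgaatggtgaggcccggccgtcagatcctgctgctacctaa

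Levels per kb of transcript placed the genes in order within a group. In the Firre overexpression group Fabp3 (384 ± 6.38 CPM per kb) came first, followed by Acadl (312 ± 3.15), Acaa2 (298 ± 20.4) and Lpl (193 ± 8.49; SD, n = 3 each). In the negative control Acadl (148 ± 7.70 CPM per kb) and Fabp3 (147 ± 13.3) did not differ beyond their spread, and neither did Lpl (125 ± 4.96) and Acaa2 (123 ± 3.21). The lowest were Ucp3, Acsl6 and Cpt1b in the negative control, at 0.707 ± 0.380, 0.132 ± 0.0615 and 0.0973 ± 0.0439 CPM per kb. Ucp3 stood at 4.22 ± 1.15 CPM per kb in the Firre overexpression group. The places of Cpt1b and Etfb in this order are uncertain, because reads shared with their overlapping read-through genes cannot be assigned.

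**Figure D3:**
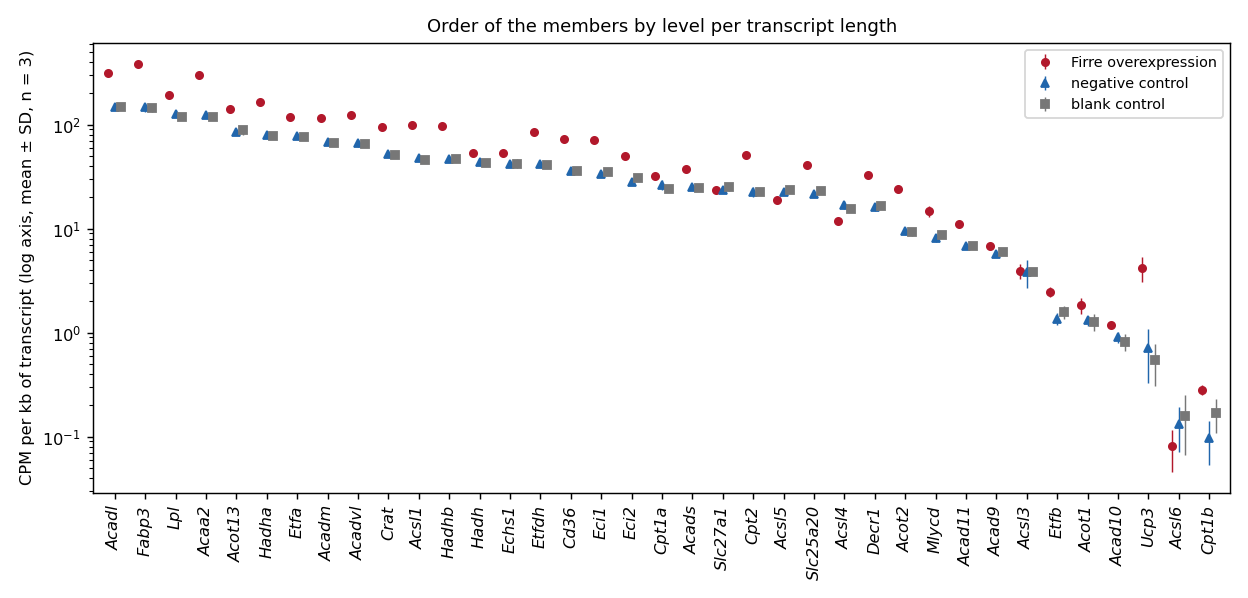
Level in CPM per kb of transcript (y axis, log scale, mean ± SD, n = 3) of the 37 members (x axis, in order of the negative control) in the Firre overexpression, negative control and blank control groups. Fabp3, Acaa2 and Ucp3 stand well above the controls at 384, 298 and 4.22 CPM per kb under Firre overexpression, and Acsl6 and Cpt1b lie at the bottom in every group. The places of Cpt1b and Etfb are uncertain, because reads shared with overlapping read-through genes cannot be assigned.

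Isoform ratios were taken as log2 ratios of counts within a library, which need no scaling between libraries. Acsl1 over Acsl3 averaged 4.67 ± 0.305 under Firre overexpression, 3.68 ± 0.420 in the negative control and 3.57 ± 0.0688 in the blank control (SD, n = 3 each). The difference over the negative control was 0.99, with an exact two-sided permutation p = 0.1, the smallest that 3 against 3 libraries allow, and 0.2 when adjusted over 12 tests of 4 ratios. Acot2 over Acot1 averaged 3.68 ± 0.247 under Firre overexpression, 2.81 ± 0.121 in the negative control and 2.82 ± 0.307 in the blank control, a difference of 0.87 over the negative control (exact permutation p = 0.1, adjusted 0.2). In both ratios every Firre overexpression library was above every negative control library. Hadha over Hadhb averaged 1.72 ± 0.0720, 1.74 ± 0.0909 and 1.72 ± 0.143 in the Firre overexpression, negative control and blank control libraries, a difference of -0.02 over the negative control (exact permutation p = 0.7, adjusted 0.96). The counts of Hadhb, Acot1 and Acot2 in these ratios carry the limit of shared sequence given above. Cpt1b over Cpt1a averaged -7.42 ± 0.130 under Firre overexpression, -8.77 ± 0.771 in the negative control and -7.77 ± 0.484 in the blank control, with the counting of Cpt1b uncertain as given above; its difference was 1.35 over the negative control (exact permutation p = 0.1, adjusted 0.2) and 0.35 over the blank control (exact permutation p = 0.4, adjusted 0.686).

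Against the blank control, with which the same Firre overexpression libraries were compared, 31 members rose and 2 fell (edgeR, adjusted p), beside 27.3% of all tested genes that rose and 28.9% that fell (56.3% in either direction); 12 rose at least 2-fold, beside 4.93%. The median log2 fold change of the members was 0.74. Groups did not overlap for 31 higher and 2 lower members, beside 29.5% and 31.0% of all tested genes. The 3 members that did not pass here were Slc27a1 (-0.08), Acsl3 (0.03) and Cpt1b (0.70), while Acad10 passed at 0.52 (SE 0.18, adjusted p = 0.0167) and Acsl4 and Acsl5 were again lower, at -0.40 and -0.34. Scaled to cardiomyocyte markers, 17 members were higher and 8 lower, beside 5.40% and 71.7% of all tested genes.

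Single libraries decided 4 of these calls. Acot1 (0.52, adjusted p = 0.0267) was not called without Firre overexpression replicate 1 (adjusted p = 0.118) or 2 (0.0648) or blank control replicate 1 (0.0603) or 3 (0.120). Acad9 (0.19, adjusted p = 0.0431) was not called without Firre overexpression replicate 2 (0.0504) or 3 (0.120) or blank control replicate 1 (0.137) or 2 (0.0616). Etfb (0.65, adjusted p = 0.0341) was lost without Firre overexpression replicate 1 (0.0732) or 2 (0.0936) or blank control replicate 2 (0.0683) or 3 (0.111), and Acad10 without blank control replicate 1 (0.0760) or 2 (0.0514). DESeq2 called none of these 4, with adjusted p between 0.053 and 0.106.

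Between the control groups, negative over blank, 0 of 36 members were called by edgeR, beside 0.00640% of all tested genes called higher and 0.0512% called lower (0.0576% in either direction), and DESeq2, which gave an adjusted p for only 14 of the members here, called 0 of those. At an unadjusted p under 0.05 there were 2 members, against 1331 of the 15633 tested genes. The members' median log2 fold change was 0.01, and every member but Cpt1b (-0.81, SE 0.52), Ucp3 (0.39, SE 0.46) and Etfb (-0.21, SE 0.28), each with few counts, lay between -0.13 and 0.15. Negative and blank control libraries did not overlap for Acsl1 (higher) and for Acsl5 and Slc25a20 (lower), beside 6.21% and 6.87% of all tested genes.

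Genes that neighbour the pathway were taken from lists of related function. The counts of these lists stand beside 27.5% of all tested genes higher and 28.4% lower with TMM scaling. With marker scaling those shares were 4.95% and 72.8%, so many falls in a list under it are common to most genes. Of 15 other mitochondrial fatty acid oxidation enzymes 13 rose over the negative control and 0 fell (median log2 fold change 0.43), while scaled to cardiomyocyte markers 1 was higher and 7 lower. The 3 with the smallest p were Hsdl2, a hydroxysteroid dehydrogenase-like protein (1.53, SE 0.06), the dienoyl-CoA isomerase gene Ech1 (0.61, SE 0.06) and Ivd, of leucine breakdown (0.60, SE 0.06). Of 19 tested genes of peroxisomal oxidation 13 rose and 0 fell (median 0.31), against 2 higher and 10 lower with marker scaling. They were led by Phyh, of phytanic acid oxidation (0.94, SE 0.05), the sterol carrier gene Scp2 (0.58, SE 0.05) and the coenzyme A diphosphatase gene Nudt7 (1.01, SE 0.11).

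Other genes of uptake and binding moved in both directions, 5 rising and 6 falling of 14 tested (median 0.06), with 0 higher and 13 lower under marker scaling. Fabp5, the epidermal-type binding protein, fell by 1.22 on the log2 scale (SE 0.06), and Vldlr, a receptor of triglyceride-rich lipoproteins, rose by 0.72 (SE 0.05). Fabp1 and Fabp2 had 0 counts in all libraries. Of 6 tested other thioesterases 3 rose (median 0.22; Them6 0.55, Acot6 0.62, Them4 0.39) and 0 fell, against 0 higher and 3 lower with marker scaling. Of 12 tested genes of carnitine supply and flavin cofactors 6 rose and 1 fell (median 0.32), against 1 and 6 with marker scaling; the FAD synthase gene Flad1 had 0.98 (SE 0.08), Etfrf1, a regulator of the electron transfer flavoprotein, 0.77 (SE 0.07) and the carnitine transporter gene Slc22a5 0.66 (SE 0.11).

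Regulators of the pathway, the PPAR and ERR receptors with their coactivators and corepressors, counted 12 higher and 3 lower of 20 (median 0.24), against 6 and 12 with marker scaling. The muscle coregulator Perm1 had 82.1 ± 6.29 CPM under Firre overexpression and 31.9 ± 1.5045 CPM in the negative control, and rose by 1.36 (SE 0.07, edgeR adjusted p = 4.01e-17). The coactivator gene Ppargc1a had 84.8 ± 5.62 CPM under Firre overexpression and 32.5 ± 1.79 CPM in the negative control, and rose by 1.38 (SE 0.07, edgeR adjusted p = 1.67e-16). The receptor gene Esrra had 108 ± 7.01 CPM under Firre overexpression and 63.3 ± 4.29 CPM in the negative control, and rose by 0.77 (SE 0.06, edgeR adjusted p = 5.07e-12; SD, n = 3 each). Of 15 tested PPAR target genes outside the members 13 rose and 1 fell (median 0.61), against 5 and 6 with marker scaling. Txnip had 1.15 (SE 0.05), Pdk4, the kinase that turns off pyruvate dehydrogenase, 1.94 (SE 0.08) and Angptl4, a secreted inhibitor of lipoprotein lipase, 1.09 (SE 0.07).

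Of 27 tested genes of lipid droplet storage and lipolysis 18 rose and 3 fell (median 0.36), against 8 and 16 with marker scaling, led by the acyltransferase gene Gpam (1.06, SE 0.05), Fitm2 (0.93, SE 0.06) and the hormone-sensitive lipase gene Lipe (1.60, SE 0.11). Fatty acid synthesis, desaturation and malonyl-CoA supply ran the other way with TMM scaling (median -0.37), 4 of 20 tested genes higher and 13 lower. With marker scaling 1 was higher and 14 lower, close to the shares of all tested genes (4.95% and 72.8%). The median was then -0.99, where that scaling lowered the median of all tested genes by 0.62. Over the blank control with TMM scaling 5 were higher and 11 lower (median -0.30). Their summed level was 1463, 1498 and 1441 CPM under Firre overexpression, against 1707, 2027 and 1712 for AAV9-VC and 1616, 1634 and 1627 for the blank control, so the second negative control library stood above the other 8. Acacb, the mitochondrial acetyl-CoA carboxylase that makes malonyl-CoA at CPT1, rose by 0.87 (SE 0.06), while the cytosolic carboxylase gene Acaca had -0.75 (SE 0.08) and the desaturase gene Fads1 -0.68 (SE 0.06). All 21 genes of the TCA cycle and pyruvate dehydrogenase rose (median 0.67), of which 7 were higher and 1 lower with marker scaling. Pdhb had 0.999 (SE 0.05) and Idh3a 0.79 (SE 0.04). Glycolysis and glucose uptake counted 14 higher and 4 lower of 22 (median 0.41), against 3 and 14 with marker scaling, led by Pgam2 (1.19, SE 0.05), Ldhb (0.95, SE 0.05) and Eno3 (0.75, SE 0.05).

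**Figure D4:**
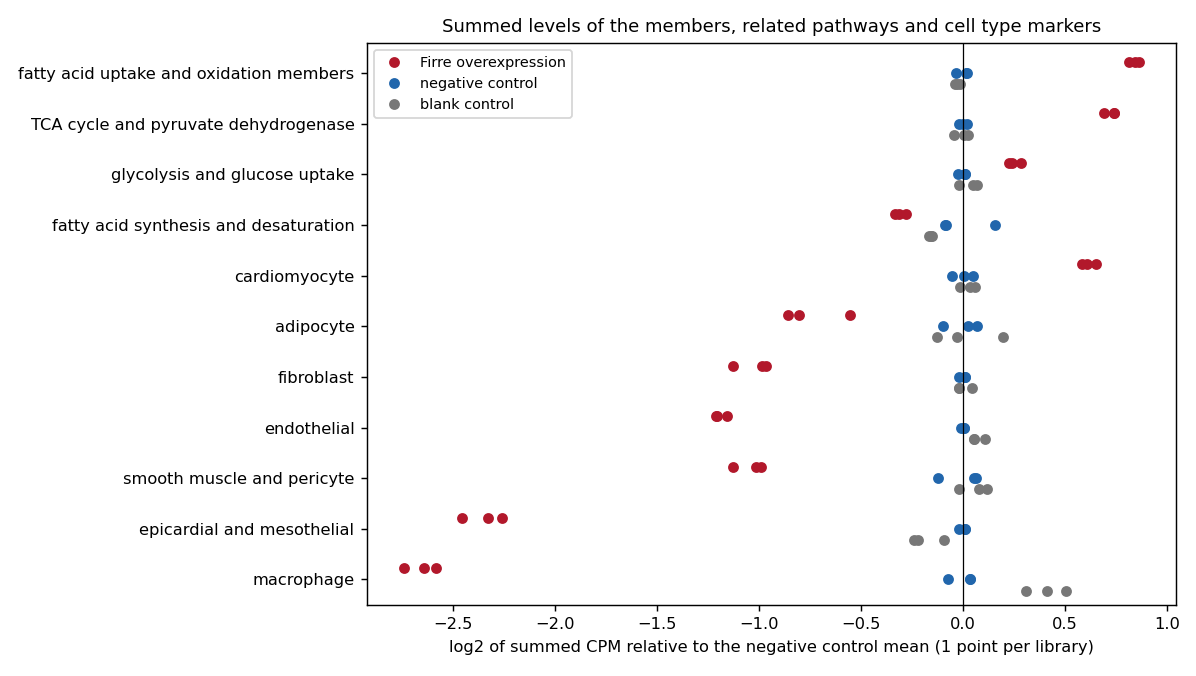
Summed level of each gene list (y axis) in each library (points), as log2 of the summed CPM relative to the negative control mean (x axis), for the Firre overexpression, negative control and blank control groups. Under Firre overexpression the members, the TCA cycle genes and the cardiomyocyte markers lie right of 0, and the markers of fibroblasts, endothelial cells, smooth muscle, epicardium and macrophages lie left of it.

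Markers of the other cell types that a heart preparation can hold fell or did not pass the test under Firre overexpression, and none rose. Summed fibroblast markers ran between 4817 and 5380 CPM in the Firre overexpression libraries, against 10389 and 10606 for AAV9-VC and 10383 and 10848 for the blank control. Summed endothelial markers ran between 663 and 689 CPM under Firre overexpression, against 1527 and 1543 for AAV9-VC and 1596 and 1657 for the blank control. Macrophage markers summed to between 12.2 and 13.7 CPM under Firre overexpression, against 77.8 and 84.1 for AAV9-VC and 102 and 116 for the blank control, and C1qa was at 0 in all 3 Firre overexpression libraries. The 10 smooth muscle and pericyte markers all fell (median -1.20), with sums between 1441 and 1589 CPM under Firre overexpression, 2894 and 3295 CPM for AAV9-VC and 3113 and 3423 CPM in blank control libraries. The 8 epicardial and mesothelial markers fell as well (median -2.42), with sums between 71.7 and 82.3 CPM under Firre overexpression, 388 and 397 CPM for AAV9-VC and 334 and 369 CPM in blank control libraries. Adipocyte markers, of which 3 of 9 were tested and 2 fell, summed to between 14.7 and 18.2 CPM under Firre overexpression, against 24.9 and 28.0 for AAV9-VC and 24.4 and 30.6 for the blank control, and Retn was at 0 in the Firre overexpression libraries and Cfd and Retn in the blank control. The part of all these cells in the members' results was not tested.

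**Figure D5:**
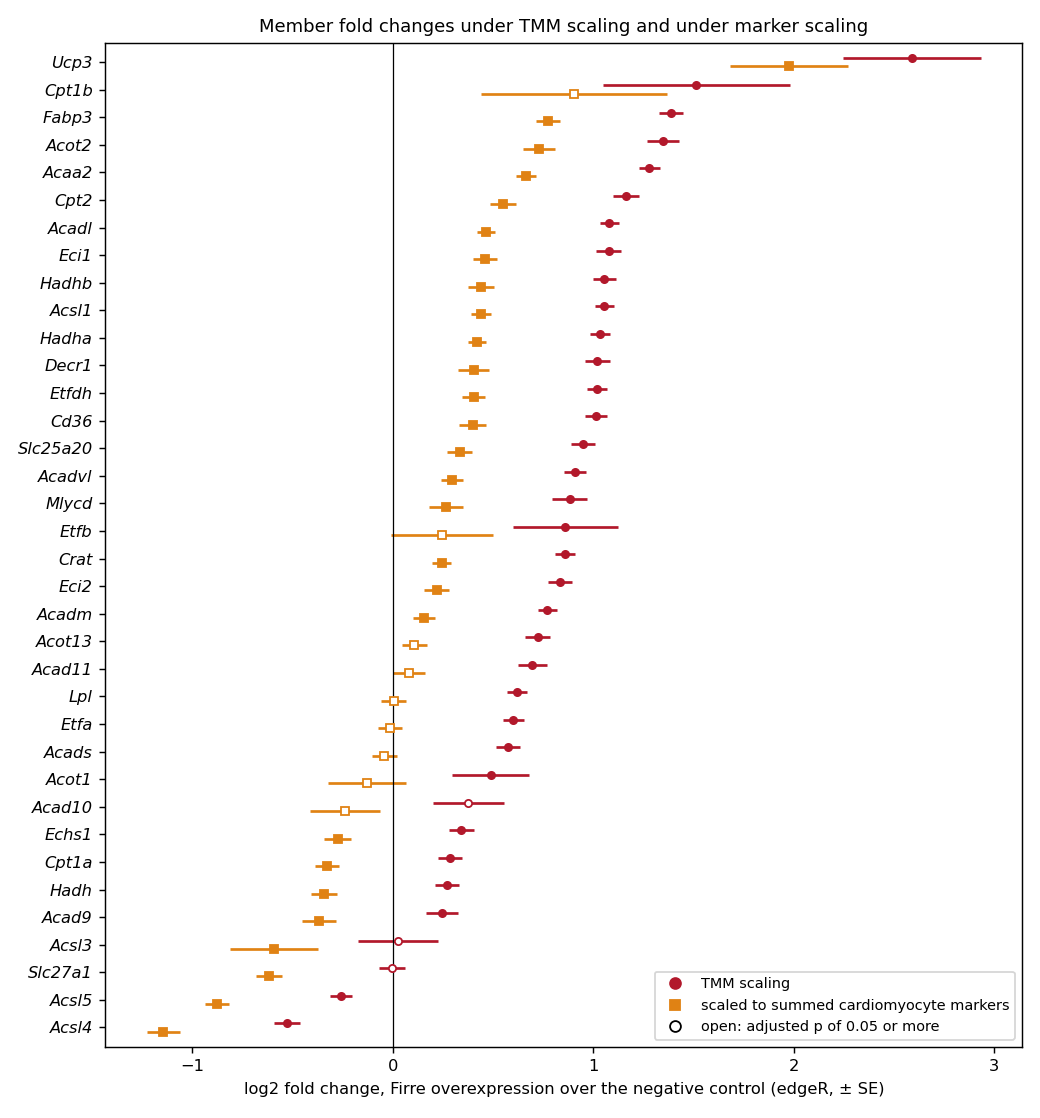
Log2 fold change of Firre overexpression over the negative control (x axis, edgeR, ± SE, n = 3 a group) of the 36 tested members (y axis) with TMM scaling (circles) and with each library scaled to its summed cardiomyocyte markers (squares); open symbols did not pass the adjusted p of 0.05. All members shift left under marker scaling; among those still called higher, Ucp3, Fabp3, Acot2, Acaa2 and Cpt2 lie at 1.98, 0.78, 0.73, 0.66 and 0.55, and Acsl4 lies lowest at -1.14.

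Over the negative control, the called rises with marker scaling were led by Ucp3 (1.98), Fabp3 (0.78), Acot2 (0.73), Acaa2 (0.66) and Cpt2 (0.55), and also held Acadl (0.47), Eci1 (0.46), Hadhb (0.44), Acsl1 (0.44), Hadha (0.42), Decr1 (0.40), Etfdh (0.40), Cd36 (0.40), Slc25a20 (0.33), Acadvl (0.30), Mlycd (0.27), Crat (0.24), Eci2 (0.22) and Acadm (0.15). Called lower were Acsl4 (-1.14), Acsl5 (-0.88), Slc27a1 (-0.62), Acsl3 (-0.59), Acad9 (-0.37), Hadh (-0.34), Cpt1a (-0.33) and Echs1 (-0.27). Called higher over the negative control under both scalings were the shuttle genes Cpt2, Slc25a20 and Crat, both subunits of the trifunctional protein, the long-chain dehydrogenases and the 3 auxiliary enzymes. Over the blank control with marker scaling, Eci2 (0.12, adjusted p = 0.0862) and Mlycd (0.19, adjusted p = 0.0567) were not called.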

How the data were processed

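RNA from isolated cardiomyocytes was depleted of ribosomal RNA and sequenced as paired reads of 150 bases from directional libraries, per the labels, although another label names polyA RNA. The authors deposited unnormalized counts for each Ensembl gene; per the submitters' processing notes FastQC, Trimmomatic, STAR and featureCounts were used with build mm10, while their versions, settings and strand use are not given in the labels. The last 5 lines of the table tally reads given to no gene, 16.3% to 17.4% of each library, and were left out of every library size and test. Symbols and positions come from GENCODE M21 (GRCm38), which matched 55227 of 55487 identifiers.

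All 9 libraries entered 1 edgeR fit (edgeR 4.0.16, R 4.3.3; quasi-likelihood F test, robust, TMM, filterByExpr with minimum count 10 and minimum total 15, 6 residual degrees of freedom), with Benjamini-Hochberg adjustment over 15633 genes and a threshold of 0.05. Each SE was obtained by dividing the size of the log2 fold change by the root of its F statistic. Levels per kb use the length of the longest principal transcript. Replicates differed by more than sampling noise, with chi-square per degree of freedom of 3.27 to 7.40, and all were kept. The labels name no sequencing or preparation batch, so a batch that followed the groups could not be told apart from them. Alternatives were other scalings (among them summed counts of 20 cardiomyocyte markers), no filter, DESeq2 1.42.0, a fit of only the compared groups, a replicate block and leaving out each replicate. The scripts were tested on simulated data in which few genes changed, as many up as down. That setting does not test the scaling under changes as broad as those found here. The labels name no molecular identifiers, so reads need not be independent molecules.

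Members, lists, comparisons and alternatives were chosen with earlier results of these data known. Values in each library are given for the up to 3 members of a role with the highest mean CPM, for members that did not move with the majority and for both genes of each ratio; from each related list the 3 genes with the smallest p are named, except 2 that are not reported here, and marker lists are given by counts and summed level.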

Additional observations from a re-analysis of the deposited data

How the results depend on the processing

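The members called numbered 32 to 33 against the negative control and 30 to 32 against the blank control when 1 library was left out, against 33 in each with all libraries; genes called ranged from 7938 to 8128 and from 7947 to 8295, against 8747 and 8796. Between the controls 0 of the members tested were called in each setting, and the 9 genes called became 0 with marker scaling, 98 without the low-count filter, 43 with DESeq2 (which gave an adjusted p for 1959 genes and 14 members in this comparison) and 0 to 55 with 1 library left out (0 without blank control replicate 1, 55 without blank control replicate 2, 3, 4 and 15 without negative control replicates 1, 2 and 3). Scaling to library totals alone gave 30 members higher and 2 lower, DESeq2 30 and 2 against the negative control and 27 and 2 against the blank control, and no filter 31 and 2 and 29 and 2.

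Members called in either fit changed sign under scaling to cardiomyocyte markers alone, which by construction lowered the fold changes of all genes; Acsl3 and Slc27a1, near 0 and not called with TMM, also changed sign in uncalled settings (Acsl3 with library totals, both when 1 library was left out). Against the negative control these were Acsl3 (-0.59), Acot1 (-0.13), Cpt1a (-0.33), Acads (-0.042), Acad9 (-0.37), Hadh (-0.34), Echs1 (-0.27) and Etfa (-0.014), besides Acad10 (-0.24), which was called in neither fit; against the blank control Acsl3 (-0.56), Acot1 (-0.075), Cpt1a (-0.15), Acad9 (-0.40), Acad10 (-0.068), Hadh (-0.28) and Echs1 (-0.25).

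With the replicate number as a block, 33 and 33 members and 8592, 8586 and 7 genes were called in the 3 comparisons. Same-numbered libraries of different groups had deviations that correlated between -0.074 and 0.057, and different-numbered ones between -0.072 and 0.098. Same-numbered libraries were thus no more alike than others. The labels do not say whether they share an animal, culture or preparation, and with 3 libraries a group this check cannot exclude it. With 1 library left out, the ratio differences over the negative control ranged from 0.91 to 1.64 (Cpt1b over Cpt1a), 0.75 to 1.12 (Acsl1 over Acsl3), 0.76 to 1.003 (Acot2 over Acot1) and -0.07 to 0.02 (Hadha over Hadhb); over the blank control from 0.15 to 0.62, 0.93 to 1.23, 0.74 to 1.03 and -0.08 to 0.06. Few counts limit Cpt1b, Acsl6, Etfb, Acot1 and Acad10, which held the fewest over all libraries, and Ucp3 in the control libraries. For Cpt1b and Etfb the overlapping read-through genes also make the level uncertain.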
